A study of Mus musculus with 6 samples.

Results

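The genes described here mark the CD8a-positive subset of conventional dendritic cells. They are Cd8a, Itgae, Cadm1, Plekha5, Cd24a, Wdfy4 and Naaa, taken as every probe set that the platform annotation gives one of these symbols. This gave 7 genes with 15 probe sets, of 17097 genes with 45037 probe sets in all. The arrays compared CD11c+ dendritic cells sorted by flow cytometry from the spleens of C57Bl/6 mice, with 3 samples labelled Map3k7 (TAK1) knockout, of genotype Map3k7CreER, and 3 samples labelled wild-type, of genotype WT. All mice had received tamoxifen in vivo for 3 days, and the mouse age, the promoter of the Cre and the number of animals behind a sample are not given in the sources used here. The labels do not tie the samples of a group to different animals, and p-values cover the spread among the 3 samples, which may be technical. The Cre and the deletion come together in the knockout group and cannot be told apart. The cells were not sorted on CD8a, and in such a mixture fewer cells of the subset and less RNA per cell cannot be told apart.

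CD8a-positive dendritic cells, often called type 1 conventional dendritic cells, take up dying cells and present their antigens on MHC class I to CD8 T cells. Their development rests on the transcription factors Irf8 and Batf3. In the mouse spleen a part of this subset also carries the integrin CD103, encoded by Itgae, and the lectin Langerin, encoded by Cd207. Map3k7 encodes TAK1, a kinase that couples innate and cytokine receptors, those of TGF-beta among them, to NF-kB and MAP kinases, and TGF-beta is known to raise CD103 on T cells.

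The 7 markers did not move as one in the knockout cells. Itgae rose 3.46-fold, and Plekha5 rose 1.91-fold on its brightest probe set. Cd8a was 2.76-fold lower on its brightest probe set, with 1 of its 3 probe sets past the threshold. Cadm1, Cd24a, Wdfy4 and Naaa did not pass, with differences between -0.21 and 0.12 on the log2 scale. With each gene represented by its brightest probe set, 2 of the 7 members were called higher and 0 lower by limma (Benjamini-Hochberg adjusted p under 0.05 over all probe sets, and 3 of 7 at an unadjusted p under 0.05). Among all genes 1.08% were called higher and 0.591% lower, and 16.4% had an unadjusted p under 0.05. The median difference was 0.06 over the 7 members and -0.02 over all genes.

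**Figure D1:**
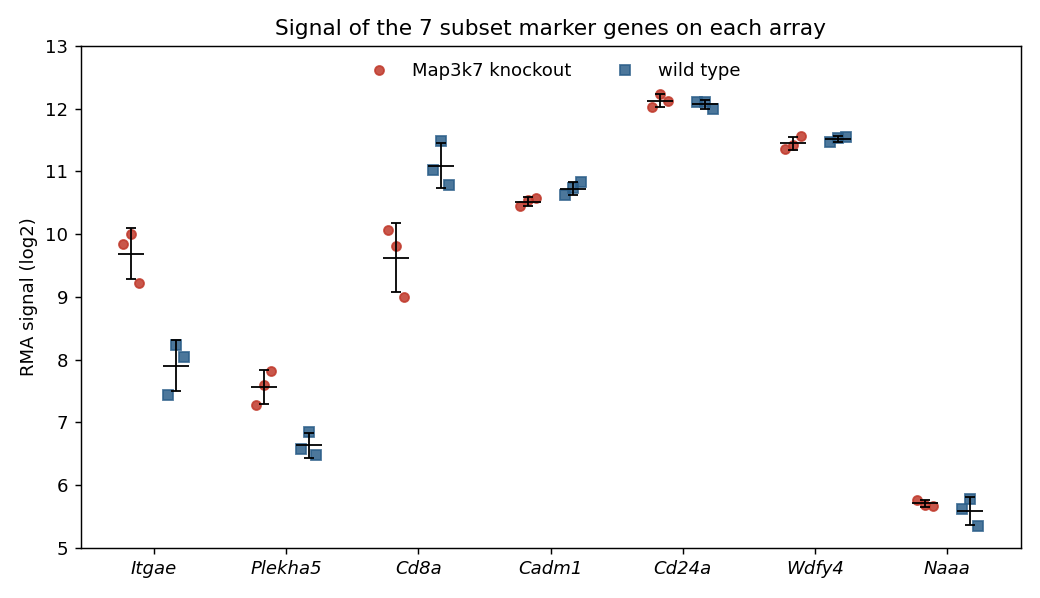
RMA signal on the log2 scale (vertical axis) of the brightest probe set of each of the 7 marker genes, with 1 point per array, knockout arrays as circles to the left of wild-type arrays as squares. The long bar is the group mean and the error bar 1 SD over 3 arrays. Itgae and Plekha5 lay higher and Cd8a lower on every knockout array, while the arrays of the groups overlapped for Cd24a, Wdfy4 and Naaa.

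The targeted gene fell in the arrays labelled knockout. Of 5 Map3k7 probe sets 3 fell, by 2.34 to 3.25 on the log2 scale, with no overlap between groups. Array medians were 3.77 to 3.81 on the log2 scale, and precision is limited by having 3 arrays a group. Of 9 general dendritic cell markers measured, 0 passed. At an unadjusted p under 0.05 they numbered 5 of 9, beside 16.4% of all genes (limma), so the missed threshold does not show them unchanged. Their mean signal was 11.33 to 11.42 on knockout arrays against 11.44 to 11.60 on wild-type arrays. The labelled cell type thus carried its defining transcripts in both groups, with a slightly lower list mean on every knockout array.

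Promoter sequences are shown for the members called on at least 1 probe set and for Itgb7, the beta subunit that pairs with the product of Itgae, where the RefSeq promoter table of build GRCm38.p6 holds them, which gave Cd8a, Plekha5 and Itgb7. The windows of Wdfy4 and Naaa were searched too and are not shown, and other promoters entered only the shares over all promoters. Each runs from 250 bases before to 50 bases after the annotated start. The table matched 4 of the 7 members, Cd8a, Plekha5, Wdfy4 and Naaa. Capitals mark matches on either strand to CAGAC, the core of the SMAD binding element. Matches to TGTGGT (RUNX) and TGANTCA (AP-1) were searched in the same way, and none lies in these 3 windows.
Cd8a, chr6:71373177-71373476, plus strand: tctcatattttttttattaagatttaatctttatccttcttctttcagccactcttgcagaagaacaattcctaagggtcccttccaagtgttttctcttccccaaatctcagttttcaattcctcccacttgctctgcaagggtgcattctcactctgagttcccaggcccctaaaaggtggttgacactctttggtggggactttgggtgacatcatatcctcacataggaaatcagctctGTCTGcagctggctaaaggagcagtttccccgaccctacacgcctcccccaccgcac
Plekha5, chr6:140423849-140424148, plus strand: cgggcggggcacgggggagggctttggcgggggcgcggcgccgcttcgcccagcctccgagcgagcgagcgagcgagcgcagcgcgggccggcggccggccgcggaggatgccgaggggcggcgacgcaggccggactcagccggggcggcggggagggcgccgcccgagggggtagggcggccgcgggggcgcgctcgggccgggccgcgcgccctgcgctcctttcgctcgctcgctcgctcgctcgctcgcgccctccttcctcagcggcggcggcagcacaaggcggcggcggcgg
Itgb7, chr15:102231886-102232185, minus strand: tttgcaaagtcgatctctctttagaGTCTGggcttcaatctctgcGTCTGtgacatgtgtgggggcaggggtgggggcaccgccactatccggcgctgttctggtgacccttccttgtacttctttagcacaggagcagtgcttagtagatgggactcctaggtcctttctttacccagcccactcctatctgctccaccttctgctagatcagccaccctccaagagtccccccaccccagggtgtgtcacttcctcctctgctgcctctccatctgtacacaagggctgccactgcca

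The Cd8a window held 3 CpG pairs and 46.7% G and C, the Plekha5 window 59 CpG pairs and 83.7% G and C, and the Itgb7 window 5 CpG pairs and 56.3% G and C. Over all 32851 promoters of this length the median was 7 CpG pairs. The window of Plekha5, which rose, was thus far richer in CpG than that of Cd8a, which was lower in knockout cells. It was also far richer than that of Itgb7, which rose. The Wdfy4 and Naaa windows, not shown, held 5 and 12 CpG pairs. Itgae had no window here, and a link of CpG content to the direction of change was not tested. CAGAC matched at 1 place in Cd8a, 0 in Plekha5 and 2 in Itgb7, and 49.6% of all promoters held a match. In the windows not shown, CAGAC matched at 2 places in Wdfy4 and 1 in Naaa, and TGTGGT at 1 place in Wdfy4. The share of all promoters with a match was 16.8% for TGTGGT and 7.81% for TGANTCA. A match is a description of the letters and no evidence of binding.

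Itgae encodes the alpha E integrin chain, CD103, which with the beta 7 chain binds E-cadherin. Its 1 probe set read 9.84, 10.00 and 9.23 on the knockout arrays, against 7.44, 8.22 and 8.04 on the wild-type arrays (log2 signal). Every knockout array lay above every wild-type array, as was so for 10.6% of all genes, and replicate 3 was the lowest of the knockout arrays. The means were 9.69 ± 0.41 in knockout cells and 7.90 ± 0.41 in wild-type cells (SD, n = 3 each), a difference of 1.79 (SE 0.25, limma adjusted p = 0.0211, 95% interval 1.21 to 2.37). By size of the signed difference Itgae ranked 44 among 17097 genes. With 1 array left out the difference ran from 1.56 to 2.02. It missed the threshold without knockout replicate 2 (1.63, limma adjusted p = 0.106) and without wild-type replicate 1 (1.56, limma adjusted p = 0.0709).

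Cd8a encodes the alpha chain of the CD8 co-receptor, which dendritic cells carry as a homodimer without the beta chain. Its brightest probe set read 10.06, 9.81 and 8.999 on the knockout arrays, against 11.02, 11.48 and 10.78 on the wild-type arrays (log2 signal). Knockout replicate 3 was again the lowest, and the groups did not overlap on any of the 3 probe sets. The brightest probe set averaged 9.62 ± 0.56 in knockout cells and 11.09 ± 0.36 in wild-type cells (SD, n = 3 each), a difference of -1.47 (SE 0.28, limma adjusted p = 0.062) that did not pass. Over the alternatives it ran from -1.69 to -1.15 and passed in 6 of 15. The second stood at -1.39 (SE 0.32, limma adjusted p = 0.102). The third, 1444078_PM_at, fell by 1.44 (SE 0.23, limma adjusted p = 0.0306), with 8.67 ± 0.47 in knockout cells and 10.11 ± 0.18 in wild-type cells (SD, n = 3 each). Among all probe sets 0.391% were called lower and 0.804% higher. As the mean of its probe sets Cd8a passed at -1.43 (limma adjusted p = 0.0401). The differences of the 3 probe sets, -1.47 to -1.39, were alike in size, while their standard errors and calls differed.

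Plekha5 encodes a protein with a pleckstrin homology domain, whose transcript is high in CD8a-positive and CD103-positive dendritic cells of the mouse. The brightest probe set, 1425543_PM_s_at, read 7.28, 7.60 and 7.82 on the knockout arrays, against 6.58, 6.85 and 6.47 on the wild-type arrays (log2 signal). Every knockout array was higher, but here replicate 3 was the highest of the knockout arrays. The means were 7.56 ± 0.27 in knockout cells and 6.63 ± 0.20 in wild-type cells (SD, n = 3 each), a difference of 0.93 (SE 0.16, limma adjusted p = 0.0429). The probe set 1425544_PM_at read 6.70, 7.52 and 7.82 on the knockout arrays and 6.15, 6.67 and 6.86 on the wild-type arrays. These overlapped, and its difference of 0.78 (SE 0.29, limma adjusted p = 0.324) did not pass. The third probe set was dim in both groups, at 3.53 in knockout cells and 3.49 in wild-type cells. The rise of Plekha5 therefore rests on a probe set whose name ending marks probes that can match several transcripts, and with 1 array left out the call held in 1 of 6 fits, that without knockout replicate 1.

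The other 4 members stayed close to their wild-type signal. Cadm1, an adhesion molecule that binds Crtam on T cells, read 10.45, 10.54 and 10.57 on the knockout arrays, against 10.62, 10.73 and 10.83 on the wild-type arrays on its brightest probe set. Its difference of -0.21 (SE 0.10, limma adjusted p = 0.453) had a 95% interval of -0.43 to 0.02. The other 3 Cadm1 probe sets stood at -0.27, -0.03 and -0.03, the first of them without overlap between groups and at limma adjusted p = 0.263. Among all genes 10.6% had every knockout array below every wild-type array, so lack of overlap alone set Cadm1 apart little.

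Cd24a encodes a short glycoprotein anchored in the membrane, which erythroid and B cells also carry. It read 12.03, 12.24 and 12.12 on the knockout arrays, against 12.11, 12.11 and 11.99 on the wild-type arrays, a difference of 0.06 (95% interval -0.16 to 0.29). Wdfy4, which CD8a-positive dendritic cells need to present antigen of other cells on MHC class I, read 11.35, 11.42 and 11.57 on the knockout arrays, against 11.46, 11.54 and 11.55 on the wild-type arrays. Its difference was -0.07 (95% interval -0.30 to 0.15). Naaa encodes a lysosomal amidase that breaks down N-acylethanolamines. It read 5.77, 5.68 and 5.67 on the knockout arrays, against 5.62, 5.78 and 5.35 on the wild-type arrays, a difference of 0.12 (95% interval -0.16 to 0.41). The groups overlapped for each of these 3 genes, with limma adjusted p between 0.791 and 0.878. The intervals leave out changes of the size seen for Itgae and Cd8a on these probe sets, but a missed threshold does not show that the groups were alike.

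**Figure D2:**
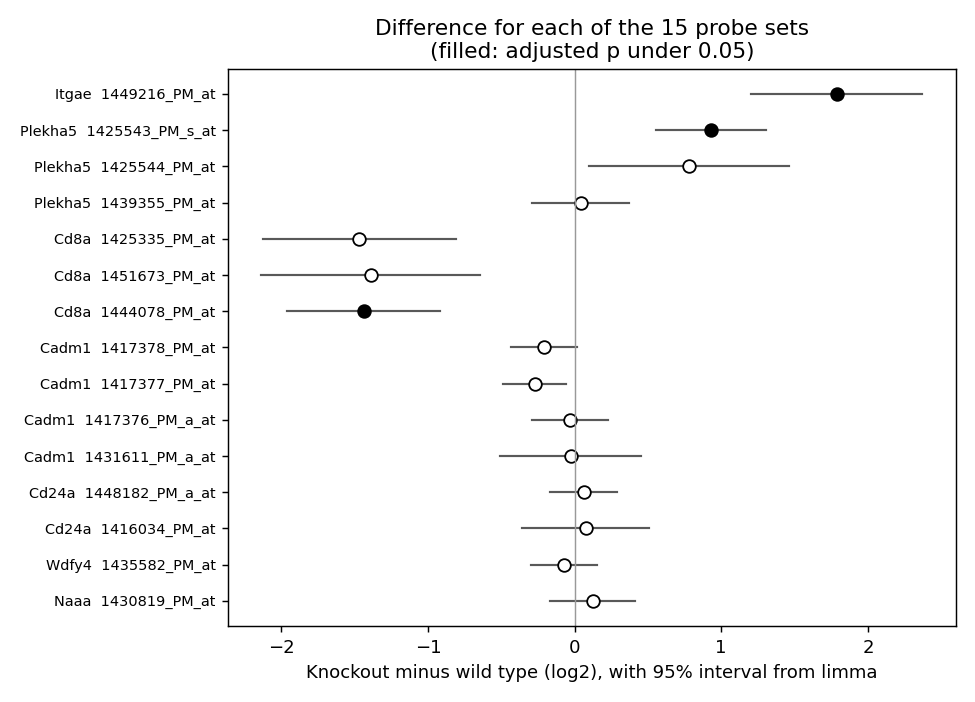
Difference between knockout and wild-type arrays on the log2 scale (horizontal axis) for each of the 15 probe sets of the 7 markers, with the 95% interval from limma as a line. Filled circles passed an adjusted p under 0.05, which held for Itgae, 1 of 3 Plekha5 and 1 of 3 Cd8a probe sets, and the Cadm1, Cd24a, Wdfy4 and Naaa points lay between -0.27 and 0.12.

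Whether Itgae changed with or apart from the other markers was tested on the difference between the changes themselves. The change of Itgae exceeded that of Cd8a by 3.26 on the log2 scale (SE 0.37), that of Cadm1 by 2.00, that of Wdfy4 by 1.86, that of Cd24a by 1.73 and that of Naaa by 1.66. In each of these 5 pairs every knockout array lay above every wild-type array, and the exact permutation test over arrays gave p = 0.1 (2-sided), the smallest that 3 against 3 arrays can give. Over all genes 97.2% were separated from Itgae in this way. All 5 pairs were called by limma fitted to Itgae minus every other probe set (Benjamini-Hochberg adjusted p of at most 1.13e-05). That fit gave the same standard error to all pairs, because every row shares the Itgae values. Its p-values take the spread of Itgae over these arrays as known and are too small. With the prior variance taken from single genes in the same limma framework, a setting chosen after seeing the data, the adjusted p was 0.000341 for Cd8a, 0.000341 for Cadm1, 0.000383 for Wdfy4, 0.000406 for Cd24a and 0.000467 for Naaa. The Itgae change was called larger than that of 99.1% of all genes in the limma fit and of 98.8% with the prior of single genes, so separation from 5 markers that were lower or near 0 is not particular to them.

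Plekha5 was the member nearest to Itgae. The change of Itgae exceeded its change by 0.86 (SE 0.37, limma adjusted p = 0.0223, and adjusted p = 0.029 with the prior of single genes), but the exact permutation test gave p = 0.2 over the 6 arrays. Itgae minus Plekha5 was 2.57, 2.40 and 1.41 on the knockout arrays, against 0.87, 1.37 and 1.56 on the wild-type arrays. These are log2 values whose zero depends on the probes and has no meaning. Knockout replicate 3, which was low for Itgae and high for Plekha5, lay within the wild-type range. The call was lost without knockout replicate 1 (0.64, limma adjusted p = 0.169), without knockout replicate 2 (0.72, limma adjusted p = 0.0935) and without wild-type replicate 1 (0.66, limma adjusted p = 0.0819). It was also lost with a trended variance (limma adjusted p = 0.0553), so that a difference between the 2 rises was not settled by these arrays.

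**Figure D3:**
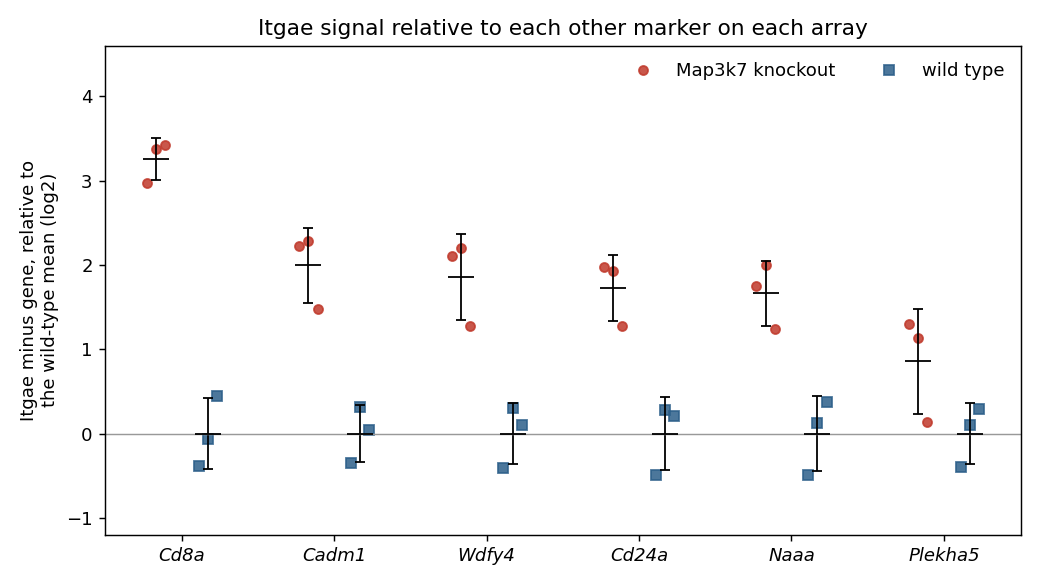
Itgae signal minus the signal of each other marker on the same array, relative to the wild-type mean of that pair (vertical axis, log2), with 1 point per array, knockout arrays as circles to the left of wild-type arrays as squares. The long bar is the group mean and the error bar 1 SD over 3 arrays. Mean shifts ran from 3.26 for Cd8a to 0.86 for Plekha5, and Plekha5 alone had a knockout array within the wild-type range.

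Over the 6 arrays the gene with the profile most like that of Itgae was Phgdh, the first enzyme of serine synthesis, at a root mean square difference of 0.27 on the log2 scale after centring each gene on its own mean. It was followed by Mgst1, a microsomal glutathione transferase, at 0.32, the guanine deaminase Gda at 0.33, the Fc receptor Fcgr3 at 0.34 and Bbip1, a subunit of the ciliary BBSome, at 0.36. These 5 genes had differences of 1.58 to 1.79, and 4 of them were called higher by limma, Mgst1 being the exception (adjusted p = 0.0731). Among the members Plekha5 ranked 127 of 17096 genes in likeness to Itgae, at 0.60, and Cd8a ranked 17052, at 1.65. The brightest Phgdh probe set can match several transcripts, and over 6 arrays in 2 groups this measure is set mostly by the group difference.

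The partner of the Itgae product changed in the same direction. Itgb7, the beta 7 integrin chain, read 9.41, 9.58 and 9.57 on the knockout arrays, against 8.77, 8.69 and 9.05 on the wild-type arrays (log2 signal). The groups did not overlap, and Itgb7 rose by 0.68 (SE 0.12, limma adjusted p = 0.0457), which is 1.60-fold. With 1 array left out the call held in 1 of 6 fits, that without wild-type replicate 3. Of 5 partners and ligands measured, Itgb7 was the 1 called higher and 0 were called lower (4 at an unadjusted p under 0.05, limma). The shares over all genes were 1.08% called higher and 16.4% at that unadjusted p. Cdh1, which encodes E-cadherin, the ligand of CD103, read 4.70, 6.32 and 5.56 on the knockout arrays, against 4.05, 4.06 and 3.93 on the wild-type arrays, a difference of 1.51 (limma adjusted p = 0.0982). Cd8b1, the beta chain that T cells pair with Cd8a, stood at -0.13 (limma adjusted p = 0.875), with 5.72 ± 0.42 in knockout cells and 5.85 ± 0.09 in wild-type cells (SD, n = 3 each). The lower Cd8a signal thus had no counterpart in Cd8b1 past the threshold.

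Among 13 other leukocyte integrins 1 rose, 1 fell and 11 did not pass (4 at an unadjusted p under 0.05, limma), with a median of -0.08. Over all genes 1.08% were called higher, 0.591% lower and 16.4% had an unadjusted p under 0.05, with a median of -0.02. Itgam, the CD11b chain, rose by 1.31 (SE 0.23, limma adjusted p = 0.0466), with 7.47 ± 0.48 in knockout cells and 6.17 ± 0.22 in wild-type cells (SD, n = 3 each). Itgal, the LFA-1 alpha chain, fell by 0.60 (SE 0.10, limma adjusted p = 0.0429), and by its mean over probe sets it stood at -0.42 (limma adjusted p = 0.128). With 1 array left out, Itgam passed in 1 of 6 fits and Itgal in 0.

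Signals known to act on Itgae showed no call. Of 13 genes measured for the TGF-beta ligands and receptors, SMADs, RUNX factors and beta chains of the GM-CSF and interleukin-3 receptors, 0 passed (2 at an unadjusted p under 0.05, limma), with a median of 0.08. The share of all genes at that unadjusted p was 16.4%, so 2 of 13 was near it. The receptor Tgfbr2 stood at 0.48 (limma adjusted p = 0.176) and Csf2rb2, a beta chain of the interleukin-3 receptor, at -0.35 (limma adjusted p = 0.348). Of 11 TGF-beta target genes other than Itgae, 1 was called higher and 0 lower (4 at an unadjusted p under 0.05, limma), with a median of 0.41. Over all genes the median was -0.02, and 1.08% were called higher. The gene called higher was Tgfbi, a matrix protein, which rose by 0.88 (SE 0.13, limma adjusted p = 0.0265). It held its call in 2 of 6 fits that left out an array. Id3, a transcription inhibitor, stood at 1.01 (limma adjusted p = 0.0791).

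Of 15 other genes of the CD8a-positive subset measured, 2 fell, 0 rose and 13 did not pass, beside 0.591% of all genes called lower. At an unadjusted p under 0.05 they numbered 8 of 15, beside 16.4% of all genes (limma). Of those 8, Ifi205 (0.35, limma adjusted p = 0.127) and Btla (0.28, limma adjusted p = 0.39) stood higher and the rest lower. Over the 15 genes 6 differences were positive and 9 negative, with a median of -0.26. The genes called lower were Cxcl9, an interferon-induced chemokine (-1.54, SE 0.09, limma adjusted p = 0.000492), and Tlr12, an endosomal receptor for profilin (-1.01, SE 0.11, limma adjusted p = 0.007). Tlr12 was dim, at 4.32 ± 0.09 in knockout cells and 5.33 ± 0.13 in wild-type cells (SD, n = 3 each). Cxcl9 and Tlr12 held their call in all 6 fits that left out an array. Xcr1, the chemokine receptor that defines the subset, read 10.36, 10.58 and 10.15 on the knockout arrays, against 11.22, 11.57 and 10.74 on the wild-type arrays. Its groups did not overlap, and its difference of -0.81 (SE 0.21, limma adjusted p = 0.14) did not pass.

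Cd207, which encodes Langerin and marks the CD103-positive part of the splenic subset, was singled out after its values were seen. It read 6.85, 4.59 and 4.14 on the knockout arrays, against 7.94, 8.58 and 8.06 on the wild-type arrays. All knockout arrays were lower, with a wide spread among them. Its difference of -3.00 (SE 0.62, limma adjusted p = 0.0723) did not pass, and over the alternatives it ran from -3.82 to -2.47 and passed in 4 of 15. Itgae and Cd207, which mark the same part of the subset in the wild-type mouse, thus had differences of opposite sign.

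Transcription factors of the lineage gave 0 calls among 7 measured, with a median of -0.16. At an unadjusted p under 0.05 they numbered 5 of 7, beside 16.4% of all genes (limma). The groups did not overlap for any of those 5, which went in both directions, so the missed threshold does not show the list unchanged. Batf3 read 10.22, 10.28 and 10.21 on the knockout arrays, against 10.27, 10.57 and 10.35 on the wild-type arrays, a difference of -0.16 (limma adjusted p = 0.635). Irf8 read 11.00, 11.26 and 10.96 on the knockout arrays, against 11.53, 11.94 and 11.53 on the wild-type arrays, a difference of -0.59 (limma adjusted p = 0.121) with no overlap between groups. Zbtb46, a factor of conventional dendritic cells, stood at -0.75 (limma adjusted p = 0.0621), and Nfil3, which acts upstream in the lineage, at 1.28 (limma adjusted p = 0.0939).

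**Figure D4:**
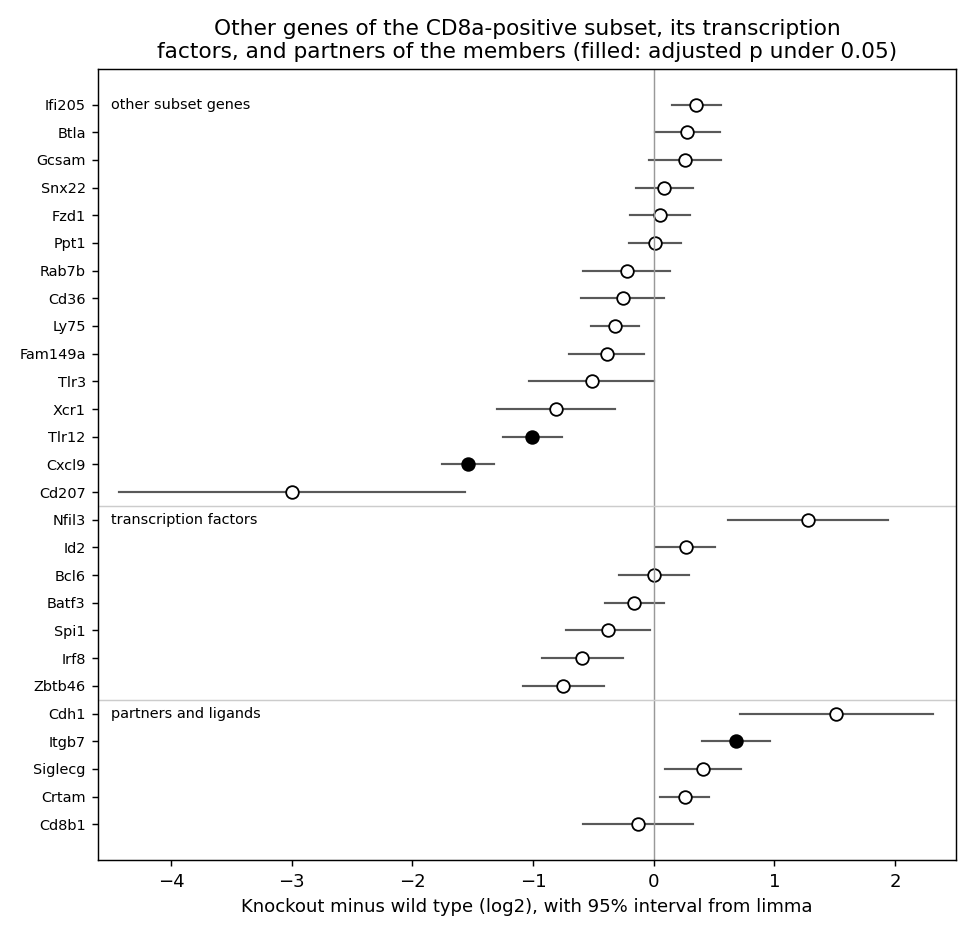
Difference between knockout and wild-type arrays on the log2 scale (horizontal axis) with the 95% interval from limma, for 15 other genes of the CD8a-positive subset, 7 transcription factors and 5 partners and ligands of the members. Filled circles passed an adjusted p under 0.05, which held for Tlr12, Cxcl9 and Itgb7, and the widest interval was that of Cd207 at -3.00.

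Markers of other cells that can carry these transcripts were read beside them. Of 15 macrophage markers 3 rose and 0 fell, Cd163 (1.58, limma adjusted p = 0.00933), Mertk (1.16, limma adjusted p = 0.0115) and Cd5l (1.51, limma adjusted p = 0.0166), and the mean signal of the list was 6.87 to 7.31 on knockout arrays against 6.63 to 6.75 on wild-type arrays. At an unadjusted p under 0.05 the macrophage markers numbered 8 of 15 (limma), among them Hmox1, which stood lower (-0.53, limma adjusted p = 0.134). Of the 15 differences 11 were positive and 4 negative. Among all genes 1.08% were called higher and 16.4% had an unadjusted p under 0.05. The count past the threshold ran from 0 to 7 with 1 array left out, and the calls held in 5 of 6 such fits for Cd163, 3 for Mertk and 2 for Cd5l. Knockout replicate 3 was the lowest knockout array for this list, as it was for Itgae and Cd8a. It was also the lowest for every other cell type list except that of B cells, so this was not particular to macrophage markers. Of 11 markers of CD11b-positive dendritic cells 2 rose, Itgam and the lectin Clec10a (1.99, limma adjusted p = 0.0026), and the Notch target Dtx1 fell by 0.97 (limma adjusted p = 0.0306), while 6 had an unadjusted p under 0.05. The rest of these 6 were Esam (-1.10, limma adjusted p = 0.0926), Cx3cr1 (-1.02, limma adjusted p = 0.0654) and Mgl2 (1.29, limma adjusted p = 0.199). Over the 11 markers 5 differences were positive and 6 negative, with a median of -0.12. With 1 array left out the calls held in 6 of 6 fits for Clec10a and 2 for Dtx1. The CD11b-positive list averaged 7.54 to 7.86 on knockout arrays and 7.47 to 7.78 on wild-type arrays. The part of these cells in the changes of Itgae, Itgb7 and Cd8a was not tested.

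T cells can also carry Cd8a and Itgae. Of 10 T cell markers 0 passed (0 at an unadjusted p under 0.05, limma), 7 lay below a log2 signal of 5 on every array, and the list averaged 4.22 to 4.47 on knockout arrays and 4.42 to 4.49 on wild-type arrays. The brightest of the others was Cd5, a surface receptor, at 6.15 ± 0.30 in knockout cells and 6.48 ± 0.28 in wild-type cells (SD, n = 3 each), named after its values were seen. The smallest p among the 10 was that of Cd3d (-0.25, limma adjusted p = 0.44). The part of T cells in the changes of Cd8a and Itgae was not tested. Of 8 markers of plasmacytoid dendritic cells, some of which carry Cd8a, 0 passed (1 at an unadjusted p under 0.05, limma), with Spib at -0.88 (limma adjusted p = 0.0635) and a list mean of 6.48 to 7.19 on knockout arrays against 6.90 to 7.32 on wild-type arrays. The share of all genes at an unadjusted p under 0.05 was 16.4% (limma).

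For Cd24a the other sources are erythroid and B cells. Of 7 erythroid markers 1 fell, the globin Hbb-b2 (-3.01, limma adjusted p = 0.0325), 0 rose, and all 7 differences were negative (3 at an unadjusted p under 0.05). Over all genes 0.591% were called lower and 16.4% had an unadjusted p under 0.05 (limma). The Hbb-b2 probe set can match several transcripts, and without such probe sets the gene stood at -0.12 (limma adjusted p = 0.847). The Hbb-b2 call held in 2 of 6 fits that left out an array. The globin Hba-a1, named after its values were seen, stood at -3.57 (limma adjusted p = 0.0713) without overlap between groups. Its brightest probe set can also match several transcripts. The erythroid list had a mean of 3.98 to 4.46 on knockout arrays against 4.95 to 5.69 on wild-type arrays. Of 9 B cell markers 0 passed (3 at an unadjusted p under 0.05, limma), with Cr2 at -0.53 (limma adjusted p = 0.0522) and a list mean of 4.56 to 4.73 on knockout arrays against 4.83 to 4.93 on wild-type arrays. Cd24a stood at 0.06 and 0.08 on its probe sets beside these values, and the part of these cells in it was not tested. Of 9 NK cell markers 0 passed (1 at an unadjusted p under 0.05, limma), with Gzma at 0.59 (limma adjusted p = 0.293) and a list mean of 4.56 to 4.68 on knockout arrays against 4.62 to 4.65 on wild-type arrays. Of 9 monocyte and neutrophil markers 0 passed (3 at an unadjusted p under 0.05, limma), with S100a8 at 2.28 (limma adjusted p = 0.147) and a list mean of 4.92 to 5.69 on knockout arrays against 4.57 to 4.85 on wild-type arrays.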

How the data were processed

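The deposited table holds RMA values, per the submitters' processing notes made by the authors in Affymetrix Expression Console (version 1.1) with background correction, quantile normalization and a summary per probe set, and its values (2.58 to 13.9) show a log2 scale. Folds of dim genes are understated, and arrays give no depth. The genome build is not given in the sources used here.

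Knockout minus wild type was fitted with limma 3.58.1 in R 4.3.3 (lmFit and eBayes) over 45037 probe sets, without 104 control probe sets. The brightest probe set, by its mean over all arrays, stood for a gene. Of these probe sets 551 had several symbols and 15588 none, and no gene was named from them. Genes beyond the members were named by a rule. Per list of related genes these were up to 4 past the threshold by smallest p, or with fewer than 2 the 2 of smallest p, plus Itgb7, Cd8b1, Batf3, Irf8 and Xcr1. Per list of another cell type they were up to 3 past the threshold, or the 1 of smallest p. The 5 genes nearest to Itgae in profile were added. Cd207, Cd5, Hmox1, Hba-a1, Ifi205, Btla, Esam, Cx3cr1 and Mgl2 were named after their values were seen. The members and lists were chosen with earlier results of these data known. Unmatched list genes, such as Clec9a and Ccr7, were not analysed here. Single pairs were compared by exact permutation. Alternatives were other probe set choices, normalizations and variances, the replicate block, other thresholds and leaving out each array. Promoters came from RefSeq. Figures were drawn with matplotlib 3.10.9.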

Additional observations from a re-analysis of the deposited data

How the results depend on the processing

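Of the 7 members 2 were called higher in the fit as reported. The count was 1 without probe sets ending in x or s, 1 after a further quantile normalization, 1 on means of probe sets, 0 at an adjusted p under 0.01, and 0 to 2 with 1 array left out (0 without knockout replicate 2 or wild-type replicate 1). The count of members called lower was 0, and 1 (Cd8a) without the probe sets under the median level, on means of probe sets, with trended variance, with array weights, with the replicate block or at an adjusted p under 0.1, and 0 to 1 with 1 array left out. Of 147 genes of the other lists 7 were higher, 11 with the replicate block, 11 at 0.1, 2 at 0.01 and 1 to 9 with 1 array left out. There 5 were lower, 9 on means of probe sets, 8 with trended variance, 9 with array weights, 10 with the replicate block, 12 at 0.1, 2 at 0.01 and 2 to 8 with 1 array left out.

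The Itgae difference kept its sign in 15 of 15 alternatives, from 1.56 to 2.02, and passed in 13. Itgae minus Plekha5 was 0.86 with trended variance, where its call was lost, and 0.64 to 1.22 with 1 array left out. Itgae minus Cd8a, Cadm1, Cd24a, Wdfy4 and Naaa kept its sign in 14 of 14 alternatives fitted in this way, with lowest values of 3.06, 1.82, 1.48, 1.66 and 1.42. Array weights are not counted there, since they were estimated on rows that all hold Itgae, and calls of this fit, which included 99.1% of genes, say little of stability. The moderated t-test with the prior of single genes was also run with 1 array left out, added after seeing the data. These 5 pairs were called in 6 of 6 such fits each (adjusted p of at most 0.00266 by that test). Itgae minus Plekha5 was called in 2 of 6. Its call was lost without knockout replicate 1 (0.64) or 2 (0.72) and without wild-type replicate 1 (0.66) or 2 (0.91). Cd8b1 reversed to 0.11 without knockout replicate 3 and ran down to -0.30 with another array left out. The alternatives gave 945 other values, which were differences of single genes and counts of calls per list. Of these, 798 kept direction and side of the threshold or, for a count, stayed alike. A call was lost in 47 and gained in 20, and 79 were moved counts. Several genes were never called and several counts were 0 in every setting, so the 798 say little of stability. The cause of the lost and gained calls and moved counts was not tested. Deviations of arrays with the same replicate number correlated at 0.05, 0.13 and 0.32 over probe sets. Knockout replicates 2 and 3 correlated best with the wild-type array of the same number, but knockout replicate 1 with wild-type replicate 2 (0.22). These values do not settle whether the numbers pair the arrays, and the main fit did not pair them. Under the replicate block Itgae stood at 1.79 with limma adjusted p = 0.0139 and Cd8a at -1.47 with limma adjusted p = 0.013.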
